A study of Mus musculus with 5 samples.

Results

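Regulatory T cells (Treg) were read out by single-cell RNA sequencing in tumours grown from a mouse mammary tumour line under progesterone or placebo. The cells were picked by their own transcripts, counted as unique molecular identifiers (UMIs, 1 per captured transcript). A Treg had 1500 or more UMIs, 2 or more UMIs of the CD3 chains Cd3e, Cd3d and Cd3g, 1 or more of Foxp3, and 2 or more summed over Ikzf2, Il2ra and Ctla4. It also had at most 1 UMI of Cd8a and Cd8b1, none of the B-cell gene Cd79a, and under 0.3% of its UMIs from the epithelial genes Krt8, Krt18, Krt19 and Epcam. In all, 214 Treg were found among 24022 barcodes, of which 21808 had 1500 or more UMIs. Progesterone 1, 2 and 3 gave 35, 8 and 25 Treg, and Placebo 1 and 2 gave 105 and 41. Of the 214, 23 were cycling (2 or more UMIs of Mki67 and Top2a) and 191 were resting.

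Foxp3 encodes the transcription factor that defines the Treg lineage. Treg restrain other lymphocytes through inhibitory receptors such as CTLA-4, through the high-affinity IL-2 receptor chain CD25 (Il2ra), which takes up interleukin 2, and through secreted or surface mediators such as TGF-beta. In tumours they are known as an immune-suppressive population, and activated tissue Treg differ from recirculating ones in homing receptors and effector genes.

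The series asked how progesterone changes the immune cells around a mammary tumour. Mice of 10 to 12 weeks carried a pellet under the skin of the neck and received 100000 SSM2 cells, a mouse mammary tumour line, in the left 4th mammary gland; tumours were collected between day 28 and day 62. The progesterone group (3 libraries) had 60 mg pellets releasing progesterone over 60 days, and the placebo group (2 libraries) had matching pellets without hormone. All hosts carried the same tumour line and a pellet, and the labels give neither their strain nor their sex. Progesterone 1 and Placebo 1 belonged to batch 1, and Progesterone 2, Progesterone 3 and Placebo 2 to batch 2. Progesterone 2 and 3 were deposited under the same identifier, one marked L and the other R, so they may come from 1 mouse. Below, values listed under progesterone or under placebo run in the order of replicate number.

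The libraries differed in make-up before any Treg was counted. T cells were 21.2, 0.734 and 1.09% of barcodes with 1500 or more UMIs under progesterone and 86.2 and 2.25% under placebo, so Placebo 1 stood apart from all the others. Median depth over all barcodes was 6172 and 8212 UMIs in the batch 1 libraries Progesterone 1 and Placebo 1, and lay between 23702 and 25316 in the batch 2 libraries. Treg themselves were close in depth, with medians of 7965, 5411 and 6271 UMIs under progesterone and 7787 and 6829 under placebo. Pairs of libraries shared 2 to 12 barcode sequences, and none of them was a Treg in both. Where Placebo 1 decides a value, the value without it is given.

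The label was checked against genes that should be absent elsewhere. Foxp3 was found in 2 of 2525 macrophages (0.0792%) and in 30 of 8507 epithelial cells (0.353%), whose median depths were 12064 to 17803 and 2794 to 53380 UMIs per library. All of Ikzf2, Il2ra and Ctla4 were detected in 142 of the 214 Treg (66.4%), and a Cd4 UMI in 117 (54.7%). Foxp3 and these 3 genes belong to the rule, so their presence does not test the label; Cd4, which the rule did not use, was seen in 1 of 8 Treg of Progesterone 2. At the edges of the rule, 17 further cells with Foxp3 had under 2 UMIs of Ikzf2, Il2ra and Ctla4, 16 of them in Placebo 1, and 2 Treg had exactly 2. Treg with exactly 1 Foxp3 UMI numbered 81. The limits on epithelial UMIs, on CD8 and on Cd79a kept out 8, 7 and 7 cells that met the other conditions.

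The gate genes set the identity and are given as levels, in UMIs of the gene per 1000000 UMIs (CPM), summed over the Treg of a library. Foxp3 (chromosome X, 7573644 to 7595245, plus strand, build mm10) stood at 368, 424 and 293 CPM under progesterone and 301 and 239 CPM under placebo. Ikzf2 (chromosome 1, 69531214 to 69687245, minus strand), which encodes the Ikaros family factor Helios, stood at 6007, 4079 and 4744 CPM under progesterone and 3132 and 2829 CPM under placebo. Helios transcripts were therefore higher in each progesterone library than in either placebo library, a difference in a gene used for the choice and left untested. Il2ra (chromosome 2, 11642807 to 11693193, plus strand) had 1206, 485 and 605 CPM under progesterone and 479 and 675 CPM under placebo. Ctla4 (chromosome 1, 60887000 to 60915832, plus strand) had 1458, 1535 and 2257 CPM under progesterone and 1049 and 1313 CPM under placebo. Il2ra overlapped between the pellet groups, and the Ctla4 values of progesterone Treg all lay above those of placebo Treg. Summed counts alone do not tell more Treg carrying a transcript from more transcripts per Treg. A Ctla4 UMI was found in 94.3, 100 and 96% of Treg under progesterone and 95.2 and 95.1% under placebo. An Ikzf2 UMI was found in 97.1, 100 and 100% under progesterone and 85.7 and 100% under placebo. Both shares overlapped between the groups.

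The part of the T cells that were Treg differed widely among libraries. Treg made up 17.9, 34.8 and 67.6% under progesterone and 4.92 and 58.6% under placebo of CD4 T cells, counted as Treg plus Foxp3-negative cells with a Cd4 UMI. The exact 95% intervals ran from 12.8 to 24.1% in Progesterone 1, from 16.4 to 57.3% in Progesterone 2 and from 50.2 to 82.0% in Progesterone 3. In Placebo 1 the interval was 4.04 to 5.93% and in Placebo 2 it was 46.2 to 70.2%. Intervals here and below cover counting error only. A Cd4 UMI was asked of the Foxp3-negative cells but not of Treg, so the shares rest on unequal gates. Of Treg, 68.6, 12.5 and 48% under progesterone and 56.2 and 51.2% under placebo had a Cd4 UMI. The Treg share with a Cd4 UMI asked of both was not tested. The lowest and the next-to-highest Treg share were both placebo, and the groups overlapped. Of all T cells, Treg were 8.86, 22.2 and 47.2% under progesterone and 2.58 and 33.6% under placebo. Both Treg shares were lower in each batch 1 library than in any batch 2 library. The part of batch in the shares was not tested. Progesterone over placebo, the mean log2 share of CD4 T cells differed by 1.04 (2-sided exact permutation p = 0.6 over 10 arrangements, of which the smallest possible p is 0.1).

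Within batches the share did not move one way. The log2 difference in the share of CD4 T cells was 1.87 for Progesterone 1 against Placebo 1, -0.752 for Progesterone 2 against Placebo 2 and 0.206 for Progesterone 3 against Placebo 2. Their within-batch mean was 0.797 (exact permutation p = 0.667, smallest possible 0.167). Without Placebo 1 the unstratified difference was -0.751, the opposite sign. The share of all T cells gave the same picture, with a log2 difference of 1.17 (exact permutation p = 0.6) and of -0.677 without Placebo 1. When each cell was first thinned to 1500 UMIs and then gated, 51 Treg remained and their share of CD4 T cells was 30.8, 33.3 and 66.7% under progesterone and 5.05 and 61.9% under placebo. The order of the libraries was unchanged at equal depth, with Cd4 again asked of the Foxp3-negative cells alone.

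**Figure D1:**
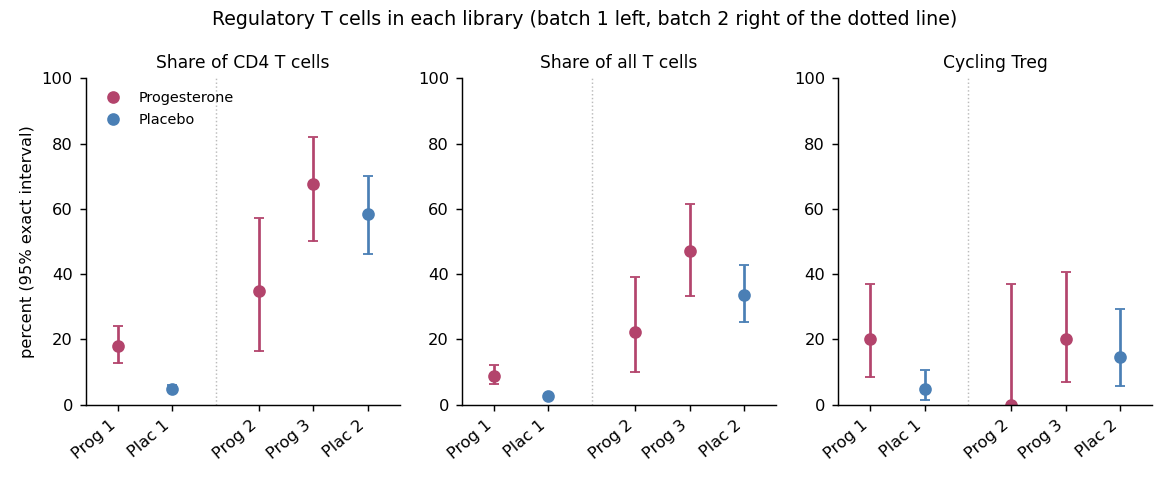
Treg as a percent of CD4 T cells, of all T cells, and cycling Treg as a percent of Treg, 1 point per library with its exact 95% binomial interval, progesterone and placebo libraries side by side within each batch. Placebo 1 is lowest in both Treg shares (4.92% of CD4 T cells), and the pellet groups overlap in each panel.

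Treg were compared with Foxp3-negative CD4 T cells of the same tumours, 160, 15 and 12 cells under progesterone and 2028 and 29 under placebo. Of the libraries, 4 had 10 or more cells of both kinds (all but Progesterone 2) and entered the fit, with library as a block. Of 6283 genes tested, 127 passed an edgeR adjusted p of 0.05 (2.02%), 68 higher in Treg (1.08%) and 59 lower (0.939%), and 118 of them had 1 sign in every library. The genes that were higher included surface receptors, effectors and cell cycle genes, and those that were lower included naive-cell genes and the CD40 ligand. The comparator is not free of Treg-like cells: 45.6, 53.3 and 83.3% of its cells under progesterone and 17.0 and 55.2% under placebo had 2 or more UMIs of Ikzf2, Il2ra and Ctla4. With such cells removed from it, Progesterone 3 kept 2 comparator cells and left the fit, and 905 genes passed in the remaining 3 libraries, against 208 in the same 3 libraries with the comparator as gated. Leaving out 1 library gave 23 calls without Progesterone 1, 51 without Placebo 2, 83 without Placebo 1 and 208 without Progesterone 3.

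Surface receptors of the Treg list were on the Treg side as a group. Of 16 tested receptors, 2 passed and both were higher, all 16 had a log2 ratio above 0, and the median was 1.65 against 0.01 over all genes tested. Klrg1 (chromosome 6, 122270596 to 122282882, minus strand), a lectin-like receptor of terminally differentiated lymphocytes and of tissue Treg, stood at 103.5, 162 and 86.4 CPM under progesterone and 21.0 and 75.3 CPM under placebo in Treg. Comparator Klrg1 was 0.637, 0 and 0 CPM under progesterone and 0 and 11.5 CPM under placebo, so that every Treg value exceeded every comparator value. By library, Treg over comparator was a ratio of 163 (34 UMIs and 1 UMI, 95% counting interval 27.3 to 6609) in Progesterone 1 and 6.54 (29 and 2 UMIs, 1.65 to 56.5) in Placebo 2. With no comparator UMI, it was at least 2.53-fold higher in Progesterone 3 and at least 131-fold in Placebo 1, against a floor of 3 counts per library. A Klrg1 UMI was found in 10 of 35, 2 of 8 and 4 of 25 Treg under progesterone and in 5 of 105 and 12 of 41 under placebo. A single Treg held 13 of the 20 UMIs of Placebo 1, and another 9 of the 18 of Progesterone 3. The ratios and intervals thus rest on few cells. The fitted value, which depends on the prior count, passed (log2 ratio 4.91, SE 0.62, edgeR adjusted p = 0.0104). Itgae (chromosome 11, 73090583 to 73147446, plus strand), the alpha chain of the CD103 integrin that binds epithelial cadherin, had 545, 384 and 360.1 CPM under progesterone and 39.9 and 283 CPM under placebo in Treg. In the comparator Itgae was 21.0, 0 and 45.6 CPM under progesterone and 1.34 and 51.8 CPM under placebo. Within each library the Treg value was the higher one, but Placebo 1 Treg lay below the comparators of Progesterone 3 and Placebo 2 (log2 ratio 3.77, SE 0.40, edgeR adjusted p = 0.00616).

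The tumour necrosis factor receptor Tnfrsf9 (4-1BB) had 389.7, 727 and 1066 CPM under progesterone and 250.1 and 576 CPM under placebo in Treg, against 5.73, 203 and 354 CPM under progesterone and 7.37 and 294 CPM under placebo in the comparator. The gap was wide in batch 1 and narrower in batch 2, and the test was not passed (log2 ratio 3.18, SE 1.10, edgeR adjusted p = 0.250). Tnfrsf4 (OX40) and Tnfrsf18 (GITR), both costimulatory receptors of Treg, had log2 ratios of 2.25, edgeR adjusted p = 0.106 and 1.12, edgeR adjusted p = 0.160. The costimulator Icos had 0.86, edgeR adjusted p = 0.0649. None of these receptors passed, although their values leaned to the Treg side. The semaphorin receptor Nrp1, often used to mark thymus-derived Treg, overlapped between the cell sets and had 0.79, edgeR adjusted p = 0.733; its log2 ratio ran from -0.20 to 4.38 over the settings tried. Calls ended when 1 library was left out (edgeR adjusted p in brackets) without Progesterone 1 for Klrg1 (0.102). Itgae kept the call with any 1 library left out. Across every setting tried the adjusted p of Klrg1 and Itgae spanned 6.59e-34 to 0.457, and signs held.

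Suppressive effectors gave the largest count of calls in the Treg lists. Of 10 tested, 4 were higher, none was lower, 9 had a log2 ratio above 0 and the median was 1.24. Gzmb, the cytotoxic protease granzyme B, had 36.5, 0 and 182 CPM under progesterone and 19.96 and 106 CPM under placebo in Treg, against 3.82, 0 and 0 CPM under progesterone and 1.39 and 11.5 CPM under placebo in the comparator. Its Treg total was 110 UMIs in 28 Treg, with no UMI in the 8 Treg of Progesterone 2, and in each fitted library the Treg value was the higher (log2 ratio 3.27, SE 0.38, edgeR adjusted p = 0.00616). Itgb8, the integrin chain that activates latent TGF-beta, had 122, 323 and 187 CPM under progesterone and 52.5 and 127 CPM under placebo in Treg, against 8.91, 59.8 and 22.8 CPM under progesterone and 1.55 and 57.6 CPM under placebo in the comparator. Again Treg were higher in each library (log2 ratio 3.26, SE 0.60, edgeR adjusted p = 0.0473). Entpd1, the ectoenzyme CD39 that degrades extracellular ATP, had 125, 60.6 and 86.4 CPM under progesterone and 36.8 and 85.6 CPM under placebo in Treg, against 27.4, 23.9 and 34.2 CPM under progesterone and 2.51 and 0 CPM under placebo in the comparator, with no overlap (log2 ratio 2.72, SE 0.46, edgeR adjusted p = 0.0233).

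Lgals1, the lectin galectin-1, had 597, 1111 and 1071 CPM under progesterone and 329 and 934 CPM under placebo in Treg, against 227, 192 and 502 CPM under progesterone and 47.9 and 339.6 CPM under placebo in the comparator (log2 ratio 1.59, SE 0.28, edgeR adjusted p = 0.0252). It was higher in Treg in each library, with overlap between libraries, and Placebo 1 was the lowest library in both cell sets. Tgfb1 itself had 374, 263 and 341 CPM under progesterone and 412 and 306 CPM under placebo in Treg, against 166, 287 and 228 CPM under progesterone and 136 and 219 CPM under placebo in the comparator, and did not pass (log2 ratio 0.90, SE 0.23, edgeR adjusted p = 0.0749). The prothrombinase-like effector Fgl2 had 137, 80.8 and 317 CPM under progesterone and 14.7 and 291 CPM under placebo in Treg; its log2 ratio was 1.62, edgeR adjusted p = 0.0722. Il10 was not tested after the filter on low counts. It was detected in 5.71, 12.5 and 16% under progesterone and 9.52 and 17.1% under placebo of Treg, against 8.36, 17.8 and 15.04% under progesterone and 18.8 and 21.2% under placebo of macrophages, which can express it. In epithelial cells, which should lack Il10, the share was 0.990, 10.1 and 9.40% under progesterone and 0 (of 45 cells, which allows up to 6.67%) and 6.72% under placebo, at the depths given above. With 1 to 4 UMI-positive cells in each progesterone library, the Treg share carries no order. With 1 library left out, edgeR calls ended (adjusted p in brackets) without Progesterone 1 for Itgb8, Entpd1 and Lgals1 (0.238, 0.0677 and 0.0774), without Progesterone 3 for Itgb8 (0.0719), without Placebo 1 for Entpd1 (0.0619) and without Placebo 2 for Lgals1 (0.0698). Gzmb kept the call with any 1 library left out. No sign changed in any setting tried, where adjusted p of Gzmb, Itgb8, Entpd1 and Lgals1 ran from 4e-17 to 0.587.

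**Figure D2:**
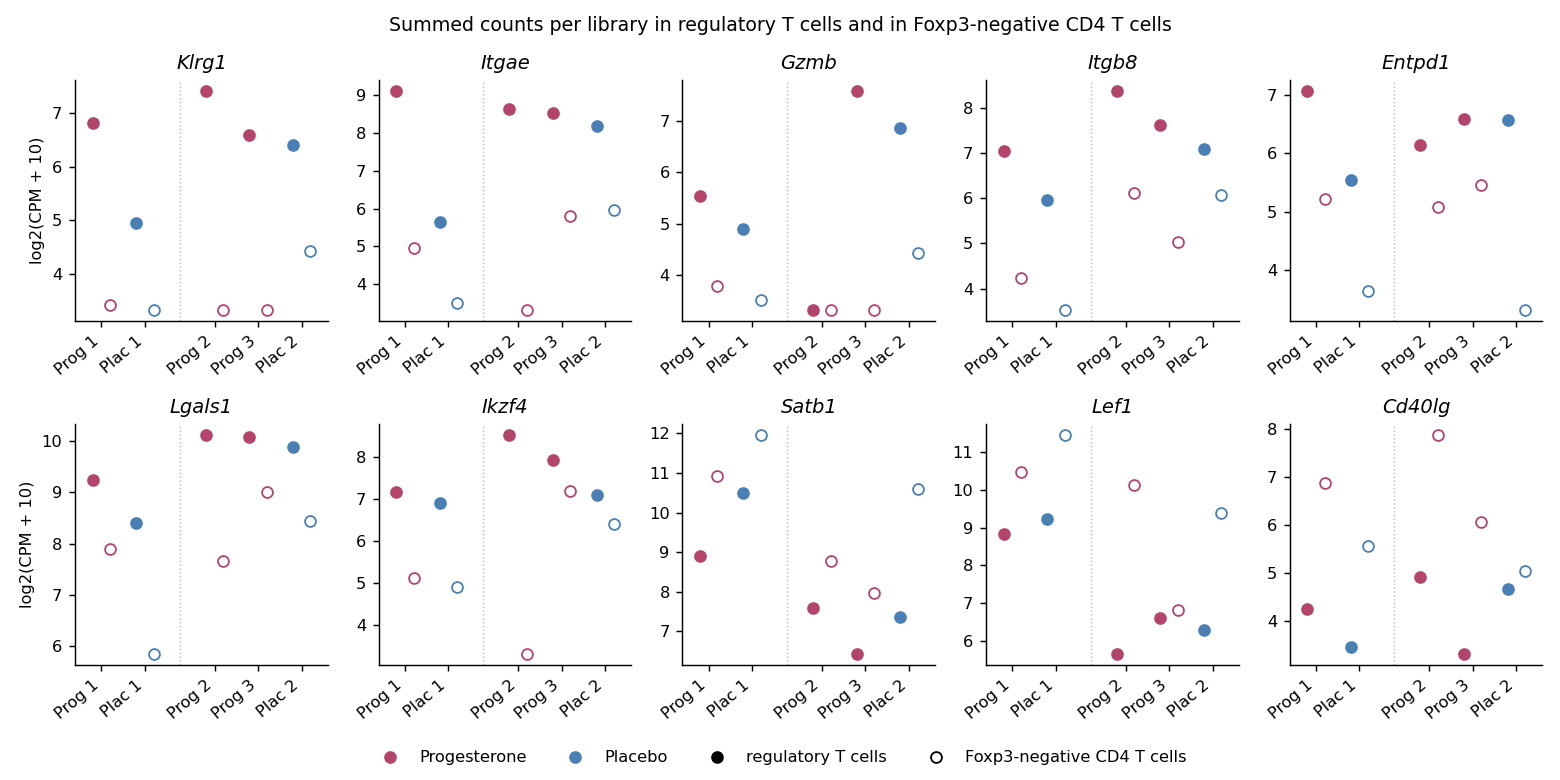
Level per library, as log2(CPM + 10), of 10 genes in Treg (filled) and in Foxp3-negative CD4 T cells (open) of the same library. Klrg1, Itgae, Gzmb, Itgb8, Entpd1, Lgals1 and Ikzf4 passed the test as higher in Treg, and Satb1, Lef1 and Cd40lg as lower; Placebo 1 Treg have the highest Satb1 and the lowest Itgae.

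Among 15 tested transcription factors, 2 were higher and 1 was lower, with a median log2 ratio of 0.48. Ikzf4, which encodes the Ikaros family factor Eos, had 134, 364 and 235 CPM under progesterone and 111 and 127 CPM under placebo in Treg, against 24.8, 0 and 137 CPM under progesterone and 20.2 and 74.8 CPM under placebo in the comparator (log2 ratio 1.66, SE 0.34, edgeR adjusted p = 0.0427). Prdm1, which encodes Blimp-1 of effector lymphocytes, had 100.5, 101 and 101 CPM under progesterone and 42.0 and 49.3 CPM under placebo in Treg, against 40.7, 35.9 and 11.4 CPM under progesterone and 9.13 and 5.76 CPM under placebo in the comparator, the Treg values all above (log2 ratio 1.82, SE 0.34, edgeR adjusted p = 0.0301). Satb1 (chromosome 17, 51736187 to 51833290, minus strand), a genome organiser that is low in mature Treg, had 472, 182 and 76.8 CPM under progesterone and 1432 and 156 CPM under placebo in Treg. In the comparator Satb1 was 1930.1, 431 and 239 CPM under progesterone and 4002 and 1537 CPM under placebo. Treg had less Satb1 in every library, while Placebo 1 Treg stood above the comparator of Progesterone 2 and 3 (log2 ratio -2.23, SE 0.31, edgeR adjusted p = 0.0105). Maf and Rora, both linked to effector and tissue T cells, had log2 ratios of 1.41, edgeR adjusted p = 0.0612 and 0.95, edgeR adjusted p = 0.448. Ahr, the aryl hydrocarbon receptor, was outside the list and passed as higher in Treg (log2 ratio 2.08, SE 0.29, edgeR adjusted p = 0.0105). Leaving out 1 library ended edgeR calls (adjusted p in brackets) without Progesterone 1 for Ikzf4, Prdm1 and Satb1 (0.206, 0.0772 and 0.0673), without Placebo 1 for Ikzf4 and Prdm1 (0.128 and 0.124) and without Placebo 2 for Prdm1 (0.0742). For Ikzf4, Prdm1 and Satb1 the adjusted p over all settings tried lay between 5.6e-16 and 0.655, with no change of sign.

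Genes of naive and recirculating T cells lay on the other side. All 11 tested had a log2 ratio below 0, with a median of -1.63, and 3 were called lower: Lef1, Igfbp4 and Satb1, which stands in both lists. Lef1, a transcription factor of naive T cells, had 441, 40.4 and 86.4 CPM under progesterone and 595 and 67.5 CPM under placebo in Treg, against 1414, 1101 and 103 CPM under progesterone and 2827 and 656 CPM under placebo in the comparator. Treg were lower in every library, with Placebo 1 the highest in both cell sets (log2 ratio -2.12, SE 0.41, edgeR adjusted p = 0.0473). Igfbp4 had 32 UMIs in 14 Treg, and a log2 ratio of -3.15, edgeR adjusted p = 0.0382. Tcf7, which encodes the naive-cell factor TCF-1, had 116, 0 and 0 CPM under progesterone and 159.7 and 0 CPM under placebo in Treg, against 572, 323 and 239 CPM under progesterone and 511 and 184 CPM under placebo in the comparator. No Tcf7 UMI was found in the Treg of 3 libraries, but the fit did not call it (log2 ratio -2.95, SE 0.80, edgeR adjusted p = 0.160). Klf2, S1pr1 and Il7r, which serve recirculation and survival of resting T cells, had log2 ratios of -1.54, edgeR adjusted p = 0.0568, -1.55, edgeR adjusted p = 0.161 and -1.19, edgeR adjusted p = 0.0541. Calls ended when 1 library was left out (edgeR adjusted p in brackets) without Progesterone 1 for Lef1 and Igfbp4 (0.206 and 0.0814), without Placebo 1 for Lef1 and Igfbp4 (0.107 and 0.128) and without Placebo 2 for Lef1 (0.0757). Across every setting tried the adjusted p of Lef1 and Igfbp4 spanned 4.46e-15 to 0.622, and signs held.

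Some helper cytokines were not found in Treg. No UMI of Il2, Il4, Il13, Il17a or Il21 was found in any of the 214 cells, which allows up to 1.40% of Treg with a UMI of each at these depths. In the 2244 comparator cells none of the 14 helper-list genes was at 0 in all libraries. The list summed to 414, 1252 and 528 CPM under progesterone and 239 and 550 CPM under placebo in Treg. In the comparator it summed to 875, 1029 and 1460 CPM under progesterone and 171 and 1370 CPM under placebo. The Treg sum was thus the higher one in Progesterone 2 and Placebo 1. Of 6 tested genes of the helper list 1 passed, and it was lower: Cd40lg (chromosome X, 57212143 to 57224042, plus strand), the ligand by which helper T cells license B cells and dendritic cells. Cd40lg had 11 UMIs in 8 Treg, at 9.13, 20.2 and 0 CPM under progesterone and 1.05 and 15.6 CPM under placebo. The comparator held 108, 227 and 57.0 CPM under progesterone and 37.3 and 23.03 CPM under placebo, and within each library the Treg value was the lower one (log2 ratio -3.17, SE 0.61, edgeR adjusted p = 0.0389). The median log2 ratio of the list was -1.55. Fasl, the death ligand, was also lower in Treg (log2 ratio -2.59, SE 0.49, edgeR adjusted p = 0.0302). With 1 library left out, edgeR calls ended (adjusted p in brackets) without Progesterone 1 for Cd40lg and Fasl (0.258 and 0.158), without Placebo 1 for Cd40lg (0.0888) and without Placebo 2 for Fasl (0.0864). No sign changed in any setting tried, where adjusted p of Cd40lg and Fasl ran from 5.27e-09 to 0.258.

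The T-cell receptor list gave no call among 13 genes (median log2 ratio 0.06), and the IL-2 and STAT5 list none among 12 (median 0.13). In these lists Cd28 had -0.75, edgeR adjusted p = 0.0649, Jak1 had -0.87, edgeR adjusted p = 0.0568 and the survival gene Bcl2 had -3.30, edgeR adjusted p = 0.193.

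Of 11 trafficking receptors tested, 2 were higher in Treg and none was lower (median log2 ratio 0.98). Ccr2, the receptor for monocyte chemoattractant chemokines, had 67.0, 20.2 and 57.6 CPM under progesterone and 23.1 and 114 CPM under placebo in Treg, against 14.01, 59.8 and 34.2 CPM under progesterone and 1.28 and 17.3 CPM under placebo in the comparator (log2 ratio 2.51, SE 0.44, edgeR adjusted p = 0.0252); in Progesterone 2, which was not in the fit, Treg were the lower set. Itgb7, the integrin chain that pairs with Itgae, had 338, 323 and 283 CPM under progesterone and 235 and 254 CPM under placebo in Treg, against 165, 132 and 103 CPM under progesterone and 132 and 103.6 CPM under placebo in the comparator, with no overlap (log2 ratio 0.98, SE 0.20, edgeR adjusted p = 0.0389). Ccr8, a chemokine receptor known from tumour Treg, had 70.0, 40.4 and 33.6 CPM under progesterone and 15.8 and 46.7 CPM under placebo in Treg, against 8.28, 23.9 and 91.2 CPM under progesterone and 0.961 and 40.3 CPM under placebo in the comparator, with the Treg lower in Progesterone 3, and did not pass (log2 ratio 1.59, SE 0.84, edgeR adjusted p = 0.413). Leaving out 1 library ended edgeR calls (adjusted p in brackets) without Progesterone 1 for Ccr2 and Itgb7 (0.0814 and 0.177), without Progesterone 3 for Itgb7 (0.0551), without Placebo 1 for Ccr2 and Itgb7 (0.0680 and 0.0764) and without Placebo 2 for Ccr2 and Itgb7 (0.0856 and 0.109). For Ccr2 and Itgb7 the adjusted p over all settings tried lay between 1.06e-07 and 0.488, with no change of sign.

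The remaining lists held few calls. MHC class I presentation had 1 of 10 called, the immunoproteasome subunit Psmb9 (0.89, edgeR adjusted p = 0.0489), with all 10 log2 ratios above 0 and a median of 0.44. Interferon-stimulated genes had 1 of 9, Ifi27l2a (1.31, edgeR adjusted p = 0.0233), with a median of 0.65. Of the steroid receptor and target list, 1 of 10 was called, the stress-induced mTOR inhibitor Ddit4, which was higher (2.03, edgeR adjusted p = 0.0293). The G2 and M list had Birc5 higher (3.67, edgeR adjusted p = 0.00616) of 7 tested, and the S-phase list the helicase subunit Mcm6 (2.11, edgeR adjusted p = 0.0123) of 13, with medians of 2.29 and 0.76. Glycolysis and lipid genes (12 tested) and dissociation stress genes (15 tested) had no call, with medians of 0.49 and -0.24. No gene of the macrophage, epithelial, B-cell, NK, dendritic or stromal lists was called. Those tested were 4 of 10, 7 of 10, 1 of 7, 1 of 8, 2 of 6 and 1 of 7 genes in that order. All 4 macrophage genes had a log2 ratio above 0 (median 1.11), against 1 of the 7 epithelial genes (median -0.60). Calls ended when 1 library was left out (edgeR adjusted p in brackets) without Progesterone 1 for Psmb9 and Ifi27l2a (0.248 and 0.0774), without Progesterone 3 for Psmb9 and Ddit4 (0.0580 and 0.0543), without Placebo 1 for Psmb9, Ifi27l2a and Ddit4 (0.130, 0.0788 and 0.0764) and without Placebo 2 for Psmb9, Ifi27l2a and Ddit4 (0.126, 0.0501 and 0.0627). Birc5 and Mcm6 kept the call with any 1 library left out. Across every setting tried the adjusted p of Psmb9, Ifi27l2a, Ddit4, Birc5 and Mcm6 spanned 1.4e-11 to 0.622, and signs held.

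By size, the genes most above the comparator also included Hist1h3c, Ccna2 and Pclaf, which serve DNA replication and division, with log2 ratios of 3.99, edgeR adjusted p = 0.0220, 3.63, edgeR adjusted p = 0.0382 and 3.42, edgeR adjusted p = 0.00616. Cycling cells were 10.7% of Treg and 3.43% of the comparator over all libraries, with 2028 of the 2244 comparator cells from Placebo 1. The shares by library, given below, lay closer together. Hist1h3c, Ccna2 and Pclaf had 68, 46 and 152 UMIs in cycling Treg and 0, 1 and 3 UMIs in resting Treg. With resting Treg alone, 72 genes passed. The others were the signalling regulators Arhgap24 (3.47, edgeR adjusted p = 0.0225), Rapgef5 (3.46, edgeR adjusted p = 0.0302) and Adap1 (2.95, edgeR adjusted p = 0.0140), and Ankrd55 (3.11, edgeR adjusted p = 0.0278). At the other end, Agbl1 had no UMI in the Treg of Progesterone 1, Progesterone 3 and Placebo 2, which were at least 1.74-fold, 14.3-fold and 14.8-fold lower than the comparator against a floor of 3 counts. In Placebo 1 it had 1 UMI in Treg and 88 in the comparator, a ratio of 0.224 with a counting interval (0.00560 to 1.28) that includes 1. Hs3st3b1, a heparan sulphate sulphotransferase, had 18.3, 0 and 0 CPM under progesterone and 30.5 and 5.19 CPM under placebo in Treg, against 168, 108 and 22.8 CPM under progesterone and 385 and 57.6 CPM under placebo in the comparator, lower in Treg in every library (log2 ratio -3.59, SE 0.30, edgeR adjusted p = 0.00162). Pde3b, a phosphodiesterase, followed at -3.03, edgeR adjusted p = 0.00616. Also lower were Pard3 (-3.18, edgeR adjusted p = 0.0252), Auts2 (-3.18, edgeR adjusted p = 0.0174), St3gal6 (-3.03, edgeR adjusted p = 0.0473), Tdrp (-3.03, edgeR adjusted p = 0.0302), Rapgef4 (-2.91, edgeR adjusted p = 0.0140) and Sidt1 (-2.74, edgeR adjusted p = 0.0329). Without Progesterone 1, calls ended for Hist1h3c, Ankrd55 and Adap1 (edgeR adjusted p 0.0557, 0.144 and 0.0813). The same held for Pde3b, Tdrp and Sidt1 (0.0557, 0.135 and 0.173). Without Placebo 2 they ended for Ccna2, Rapgef5 and Agbl1 (0.0627, 0.0548 and 0.0757), and for St3gal6, Tdrp and Sidt1 (0.0974, 0.0501 and 0.0905). Without Placebo 1 they ended for Arhgap24 and Adap1 (0.0578 and 0.0754), and without Progesterone 3 for St3gal6 (0.0534).

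**Figure D3:**
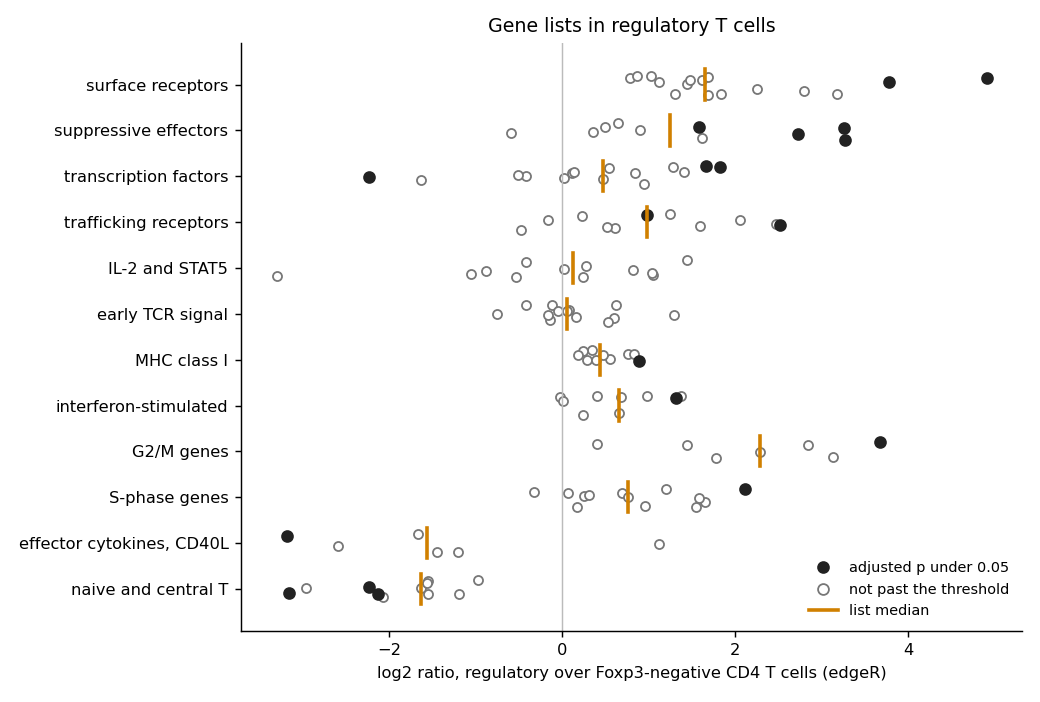
edgeR log2 ratio of Treg over Foxp3-negative CD4 T cells for every tested gene of 12 lists, 1 point per gene, with the median of each list as a bar and genes past an adjusted p of 0.05 filled. All tested surface receptors lie above 0 and all naive and recirculating genes below 0.

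Treg also differed among libraries, and Placebo 1 stood apart in several naive-cell genes and in Bcl2, which is outside the naive list. Ccr7, the chemokine receptor that guides T cells into lymph nodes, had 88.3, 364 and 197 CPM under progesterone and 483 and 182 CPM under placebo. Satb1 was given above; Bach2, a repressor that keeps T cells resting, had 177, 20.2 and 62.4 CPM under progesterone and 749 and 23.4 CPM under placebo, S1pr1 had 122, 20.2 and 19.2 CPM under progesterone and 406 and 18.2 CPM under placebo and Bcl2 had 88.3, 80.8 and 19.2 CPM under progesterone and 460.2 and 13.0 CPM under placebo. In each of these 5 genes Placebo 1 was the highest of the 5 libraries. Progesterone 1, also of batch 1, was next highest in Satb1, Bach2, S1pr1 and Bcl2, and lowest in Ccr7. Il7r of the naive list went the other way in Placebo 1. In resting Treg it had 461, 545 and 535 CPM under progesterone and 148 and 458 CPM under placebo. Summed over the 11 naive-cell genes, Treg held 2262, 1373 and 984 CPM under progesterone and 4652 and 924 CPM under placebo, and Foxp3-negative CD4 T cells held 7003, 3579 and 2669 CPM under progesterone and 11242 and 4513 CPM under placebo. Treg were below the comparator in every library. Itgae, Klrg1, Il1rl1 and Fgl2, of the Treg receptor and effector lists, had their lowest Treg level in Placebo 1. Other members of those lists did not. Tgfb1 was highest in Placebo 1 Treg, and Gzmb was lowest in Progesterone 2. In resting Treg, Lrrc32 and Gpr83 were highest in Placebo 1 (35.9 and 28.7 CPM). Il1rl1, the receptor of interleukin 33 on tissue Treg, had 298, 424 and 331 CPM under progesterone and 51.5 and 272 CPM under placebo. These contrasts of 1 library with the others were not tested.

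**Figure D4:**
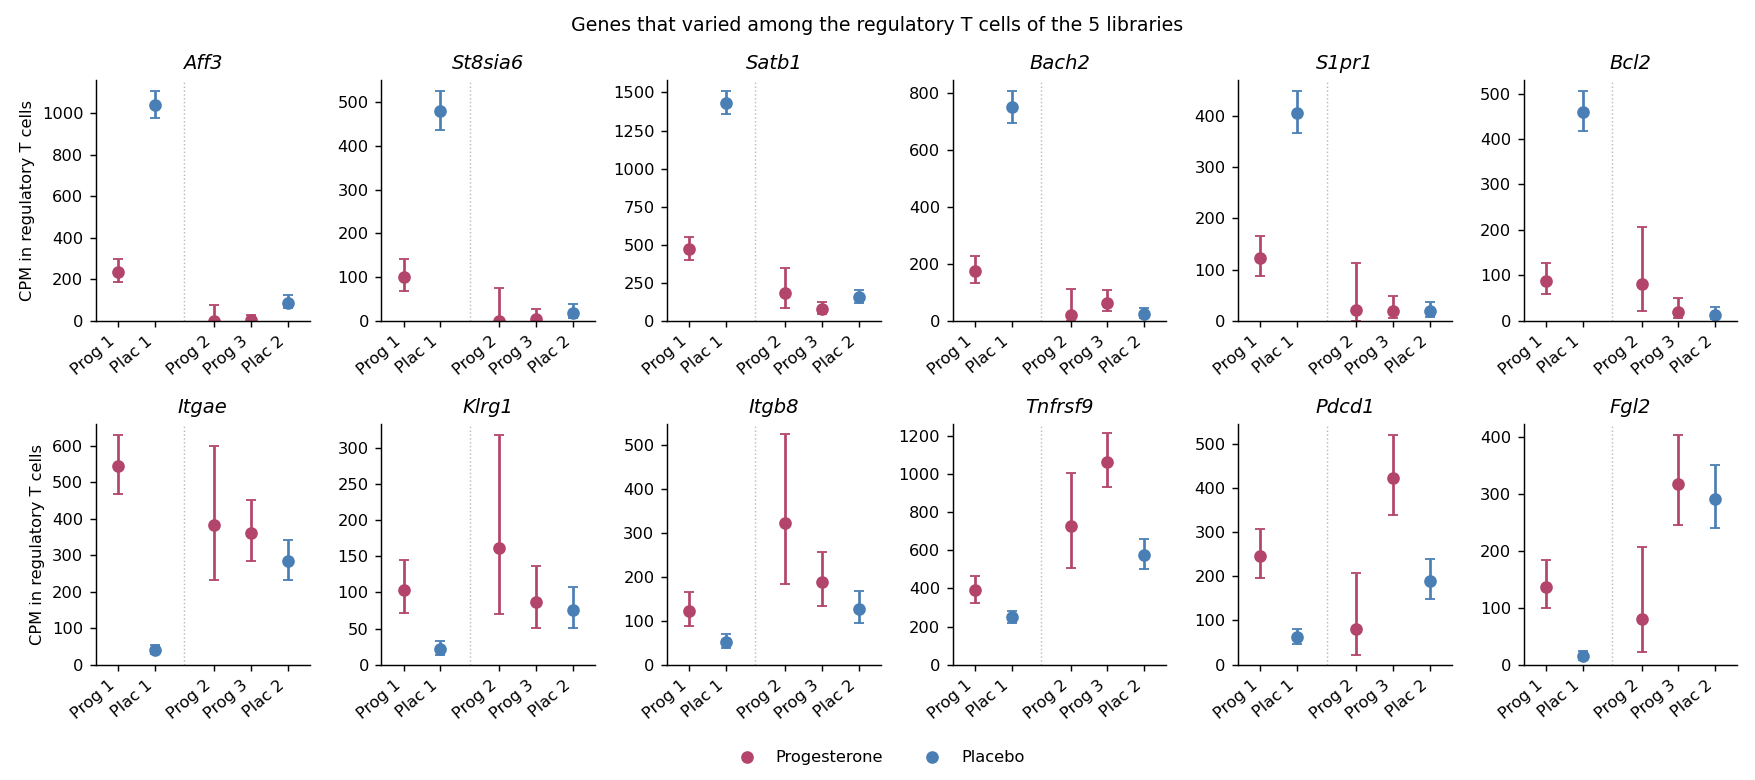
CPM of 12 genes in Treg with a 95% Poisson interval, 1 point per library, progesterone libraries left of the placebo library within each batch. Placebo 1 has the highest Aff3, St8sia6, Satb1, Bach2, S1pr1 and Bcl2 and the lowest Itgae, Klrg1, Itgb8, Tnfrsf9, Pdcd1 and Fgl2.

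Progesterone was compared with placebo in the Treg of the 4 libraries with 10 or more Treg, with batch as a term, which left 1 residual degree of freedom. Of 5499 genes, 6 passed (0.109%), 4 higher under progesterone (0.0727%) and 2 lower (0.0364%). Taking libraries with 5 or more Treg (all 5), 3 genes passed, and leaving out 1 library then gave 25 without Progesterone 1, 6 without Progesterone 2, 8 without Progesterone 3, 31 without Placebo 1 and 68 without Placebo 2. None of the 6 belonged to the Treg, naive-cell, cytokine, trafficking or signalling lists. Apoe, an apolipoprotein of macrophages, had 88.3, 80.8 and 1229 CPM under progesterone and 0 and 33.7 CPM under placebo (log2 ratio 4.82, SE 0.42, edgeR adjusted p = 0.000185). Lyz2, the lysozyme of myeloid cells, had 12.2, 20.2 and 322 CPM under progesterone and 0 and 28.5 CPM under placebo (log2 ratio 2.93, SE 0.47, edgeR adjusted p = 0.0104). A single Treg of Progesterone 3 held 248 of that library's 256 Apoe UMIs, all 67 of its Lyz2 UMIs and all 62 of its C1qa UMIs. Without cells scored as doublets the log2 ratio of Apoe was 2.15 (adjusted p = 0.813) and no gene passed edgeR's test, with 276 at an unadjusted p under 0.05; without cells holding macrophage or dendritic markers it was 2.27 (adjusted p = 0.935). Over all settings tried the adjusted p of Apoe ran from 5.33e-30 to 1.

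Fam171b (chromosome 2, 83812636 to 83883486, plus strand), a membrane protein of little-known function, had 253, 101 and 91.2 CPM under progesterone and 27.3 and 20.8 CPM under placebo. Each progesterone library stood above both placebo libraries (log2 ratio 2.56, SE 0.39, edgeR adjusted p = 0.00919). A Fam171b UMI was found in 14 of 35, 2 of 8 and 9 of 25 Treg under progesterone and in 5 of 105 and 6 of 41 under placebo. Ctla2a (chromosome 13, 60934155 to 60936625, minus strand), which encodes an inhibitor of cathepsin-like cysteine proteases, had 304, 263 and 451 CPM under progesterone and 37.8 and 112 CPM under placebo. Here too the library sums of the groups did not overlap (log2 ratio 2.37, SE 0.32, edgeR adjusted p = 0.00339). In the Foxp3-negative CD4 T cells Ctla2a was 176, 35.9 and 753 CPM under progesterone and 33.6 and 167 CPM under placebo, with the highest value in Progesterone 3 in both cell sets. Aff3 (chromosome 1, 38177326 to 38664955, minus strand), a nuclear protein of lymphoid cells, had 237, 0 and 4.80 CPM under progesterone and 1040.2 and 88.2 CPM under placebo. St8sia6, a sialyltransferase, had 100.5, 0 and 4.80 CPM under progesterone and 479 and 18.2 CPM under placebo. Both were lower under progesterone in the fit (log2 ratio -2.42, SE 0.37, edgeR adjusted p = 0.00919 and log2 ratio -2.18, SE 0.39, edgeR adjusted p = 0.0344), yet Progesterone 1 stood above Placebo 2 in each. Both also had their highest level in Placebo 1, as Ccr7, Satb1, Bach2 and S1pr1 of the naive list did. The part of that state in the result was not tested. In libraries with 5 or more Treg, leaving out 1 gave adjusted p of 0.5 without Placebo 1 and 0.688 without Progesterone 1 for Fam171b, of 0.210 without Progesterone 1 and 0.0629 without Progesterone 3 for Ctla2a and of 0.999 without Placebo 1, 1 without Progesterone 1 and 0.0629 without Progesterone 3 for St8sia6. Over all settings tried, their adjusted p and that of Aff3 reached 1 in the fit without the batch term. With resting Treg alone the calls ended (edgeR adjusted p 0.509 for Ctla2a and 0.61 for Fam171b, Aff3 and St8sia6). In Progesterone 1, cycling Treg had 485 CPM of Fam171b and 584 CPM of Ctla2a, against 134 and 161 CPM in resting Treg. In Progesterone 3 the values were 40.7 and 529 CPM, against 119 and 409 CPM. In resting Treg both genes were still higher in each progesterone library than in either placebo library.

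**Figure D5:**
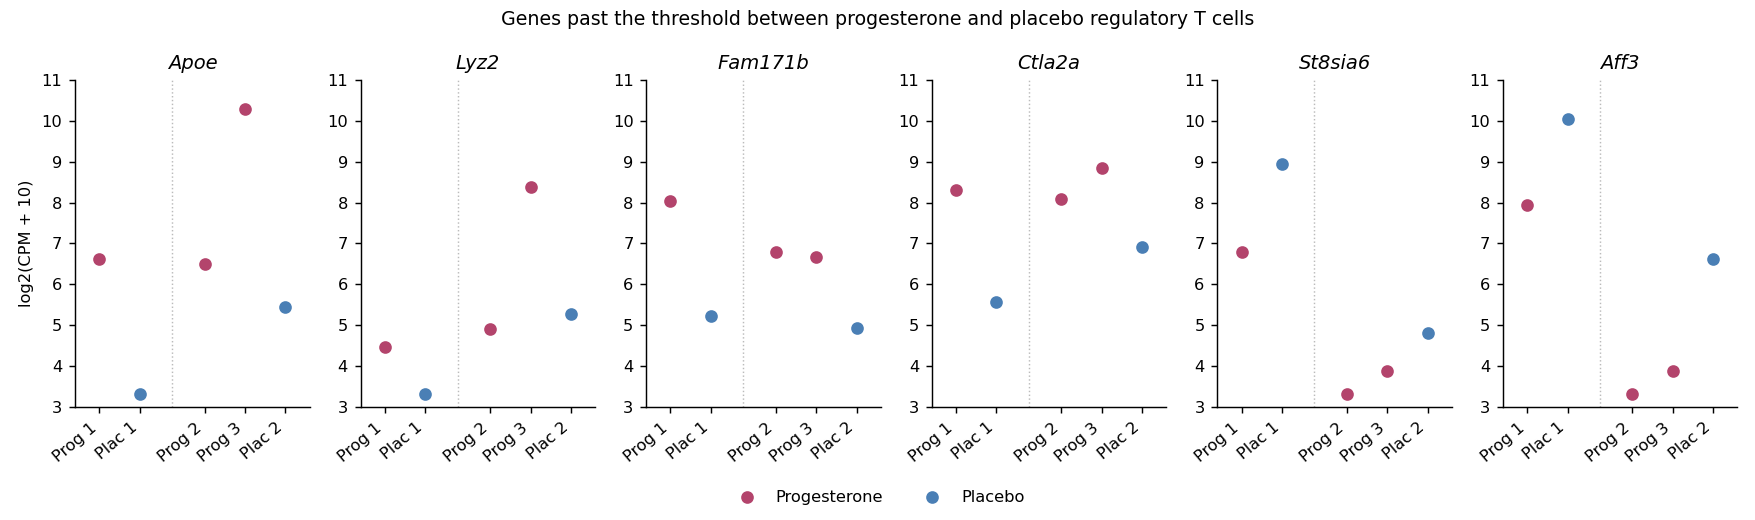
Level per library, as log2(CPM + 10), of the 6 genes that passed the comparison of progesterone with placebo Treg, by batch. Fam171b and Ctla2a are higher in all progesterone libraries; the high Apoe and Lyz2 of Progesterone 3 come from 1 cell.

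The Treg programme itself gave no call between the pellets. Of 16 surface receptors, 10 had a log2 ratio above 0 (median 0.52, against -0.03 over all genes). Of 10 suppressive effectors, 7 did (median 0.50). Of 9 naive-cell genes, 1 was above 0 (median -0.51). That lean lay in batch 1, where the 11 naive-cell genes summed to 2262 CPM in Progesterone 1 Treg and 4652 CPM in Placebo 1 Treg; in batch 2 they summed to 1373 and 984 CPM under progesterone and 924 CPM under placebo. The median of 13 transcription factors was 0.47, of 11 trafficking receptors 0.28, of 12 IL-2 and STAT5 genes -0.03 and of 13 T-cell receptor signal genes 0.14. Interferon-stimulated genes (7 tested) had -0.15, MHC class I genes (10) 0.17, G2 and M genes (7) -0.75 and S-phase genes (13) 0.21. Itgae and the inhibitory receptor Pdcd1 had log2 ratios of 1.90, edgeR adjusted p = 0.932 and 1.47, edgeR adjusted p = 0.0851. With 1 residual degree of freedom a p above the threshold does not show that the pellet groups were alike.

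The steroid receptors gave no call either. Pgr, the progesterone receptor, had 2 UMIs in 2 Treg. Nr3c1, the glucocorticoid receptor, which progesterone can also bind, had 983, 505 and 888 CPM under progesterone and 679.8 and 830.4 CPM under placebo, with overlapping groups (log2 ratio 0.26, SE 0.28, edgeR adjusted p = 0.961). Its hormone-induced target Tsc22d3 had 109.6, 263 and 149 CPM under progesterone and 158 and 119 CPM under placebo (log2 ratio -0.19, SE 0.34, edgeR adjusted p = 0.986). Over 10 receptors and targets the median was 0.35. Whether the Treg to comparator ratio differed between pellets was tested as an interaction. None of 6283 genes passed (edgeR), 171 had an unadjusted p under 0.05, and the lowest adjusted p was 0.0664.

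Transcripts of other cell types were present in Treg at different levels per library. The 10 macrophage genes summed to 143, 202 and 2502 CPM under progesterone and 2.10 and 269.9 CPM under placebo, and none of the 10 was at 0 in all libraries. The 10 epithelial genes summed to 67.0, 868 and 408 CPM under progesterone and 36.8 and 348 CPM under placebo, the 7 B-cell genes, mostly Cd74, to 256, 303 and 336 CPM under progesterone and 84.1 and 3381 CPM under placebo, and the 6 dendritic genes to 36.5, 101 and 48.0 CPM under progesterone and 15.8 and 269.9 CPM under placebo. Placebo 1 was the lowest library for these 4 lists. In all, 6 Treg held 5 or more macrophage-list UMIs or 3 or more of Flt3, Xcr1, Clec9a and Siglech, 5 of them in Placebo 2 and 1 in Progesterone 3. Their part in the results beyond Apoe and Lyz2 was not tested, other than by leaving them out, which gave 167 calls over the comparator and 1 (Ctla2a) between pellets.

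Cycling Treg were 20, 0 and 20% of Treg under progesterone and 4.76 and 14.6% under placebo. The 0 of 8 in Progesterone 2 allows a share of up to 37.5%. Thinned to 1500 UMIs, the shares were 2.86, 0 and 8% under progesterone and 0.952 and 2.44% under placebo, too few cells for an order. Progesterone minus placebo, the mean share differed by 3.64 percentage points (exact permutation p = 0.6, smallest possible 0.1), and by -1.30 without Placebo 1. Within batches the differences were 15.2 for Progesterone 1 against Placebo 1, -14.6 for Progesterone 2 and 5.37 for Progesterone 3 against Placebo 2, with a mean of 5.30 (exact permutation p = 0.667, smallest possible 0.167). Foxp3-negative CD4 T cells cycled in 10, 6.67 and 16.7% under progesterone and 2.76 and 6.90% under placebo, below the Treg of the same library in all but Progesterone 2. The cell cycle genes that passed over the comparator stand beside this gap.

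No library had 10 cycling Treg, so cycling and resting Treg were described without a test, as CPM summed over libraries with 95% Poisson intervals. Cycling cells were deeper, with medians of 13167 and 16601 UMIs in Progesterone 1 and 3 and 8229 and 16065 in Placebo 1 and 2, against resting medians of 7128, 5411 and 5207 under progesterone and 7765 and 6069 under placebo. The libraries weigh unequally in the 2 sums, so values by library are given where the sums and the libraries differ. Foxp3, part of the choice of all Treg, stood at 217 CPM (175 to 266) in cycling and 326 CPM (298 to 356) in resting Treg, and was lower in cycling Treg of every library but Progesterone 1. The rule asked at least 1 Foxp3 UMI of each Treg at any depth, which sets a higher CPM floor in shallower cells. These Foxp3 levels therefore do not show a difference between the states. Il2ra stood at 996 CPM (903 to 1096) in cycling and 560.1 CPM (523 to 599) in resting Treg. By library Il2ra had 2326 and 596 CPM in cycling Treg of Progesterone 1 and 3 and 217 and 762 CPM in those of Placebo 1 and 2, against 631 and 609.8 CPM in resting Treg of Progesterone 1 and 3 and 515 and 634 CPM in those of Placebo 1 and 2. The higher sum of Il2ra came mainly from Progesterone 1, and in Placebo 1 the cycling Treg were the lower ones. Itgae stood at 175 CPM (137 to 219) in cycling and 231 CPM (207 to 256) in resting Treg, with overlapping intervals, while by library it had 404 and 217 CPM in cycling Treg of Progesterone 1 and 3 and 17.4 and 89.1 CPM in those of Placebo 1 and 2, against 617 and 439 CPM in resting Treg of Progesterone 1 and 3 and 43.0 and 374 CPM in those of Placebo 1 and 2. Within each library Itgae was thus lower in cycling Treg. Lgals1 stood at 1229.8 CPM (1126 to 1340.0) in cycling and 417 CPM (385 to 451) in resting Treg, Vim at 1822 CPM (1696 to 1955) in cycling and 676 CPM (635 to 718) in resting Treg and Gapdh at 1303 CPM (1196 to 1416) in cycling and 641 CPM (602 to 683) in resting Treg. These genes of lectin, cytoskeleton and glycolysis were higher in cycling Treg in each of the 4 libraries that had any.

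Single naive-cell genes did not all move one way between cycling and resting Treg. Klf2 had 35.9 and 40.7 CPM in cycling Treg of Progesterone 1 and 3 and 217 and 56.7 CPM in those of Placebo 1 and 2, against 313 and 134 CPM in resting Treg of Progesterone 1 and 3 and 491 and 64.9 CPM in those of Placebo 1 and 2, lower in the cycling cells of all 4 libraries. Tcf7 had 1 UMI in cycling Treg and was lower there in both batch 1 libraries, while Progesterone 3 and Placebo 2 had none in either state. Satb1 had 341 and 108 CPM in cycling Treg of Progesterone 1 and 3 and 469 and 276 CPM in those of Placebo 1 and 2, against 539 and 59.5 CPM in resting Treg of Progesterone 1 and 3 and 1565 and 99.3 CPM in those of Placebo 1 and 2. It was lower in cycling Treg of batch 1 and higher in those of batch 2. The survival gene Bcl2, outside the naive list, had 8.98 and 0 CPM in cycling Treg of Progesterone 1 and 3 and 60.8 and 16.2 CPM in those of Placebo 1 and 2, against 129 and 29.7 CPM in resting Treg of Progesterone 1 and 3 and 515 and 11.5 CPM in those of Placebo 1 and 2, lower in cycling Treg of all but Placebo 2. By library, the 11 naive-cell genes summed to 1455 and 501 CPM in the cycling Treg of Progesterone 1 and 3 and 1963 and 818 CPM in those of Placebo 1 and 2, against 2676, 1373 and 1249 CPM under progesterone and 5022 and 974 CPM under placebo in resting Treg. Within each library with cycling cells the sum was lower in the cycling ones, by the least in Placebo 2. The glycolysis and lipid list summed to 2937 and 4852 CPM in the cycling Treg of Progesterone 1 and 3 and 2997 and 4781 CPM in those of Placebo 1 and 2, against 1833, 2888 and 2878 CPM under progesterone and 1393 and 3112 CPM under placebo in resting Treg, and was higher in cycling cells of each such library. S-phase genes, which go with the rule that chose these cells, summed to 1679.6 and 3103 CPM in the cycling Treg of Progesterone 1 and 3 and 2171 and 2877 CPM in those of Placebo 1 and 2, against 488, 424 and 736 CPM under progesterone and 575 and 546 CPM under placebo in resting Treg.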

How the data were processed

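Single-cell RNA was counted in 5 tumour libraries. The authors deposited UMI counts per gene and barcode for 24860 genes; the file header names Cell Ranger 8.0.1, while Cell Ranger 7.0.0 and mm10 stand in the submitters' processing notes. Deposited barcodes had 500 or more UMIs. No file maps barcodes to animals or cell types, and the labels do not say that libraries came from separate mice. Progesterone 2 and 3, which may come from 1 mouse, enter the share tests and the fits with 5 or more cells as separate libraries; the other fits hold Progesterone 3 alone. The p-values measure the spread between libraries, which may be technical.

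Treg were gated as the report states, with Python 3.11.15, scanpy 1.11.5 and scipy 1.17.1. The members and gene lists were chosen with earlier results of these data known. The comparator had the same limits on depth, CD3, CD8, Cd79a and epithelial UMIs. It also had no Foxp3 UMI and at least 1 Cd4 UMI, which Treg did not need. Counts were summed per library and cell set (10 or more cells) and tested with edgeR 4.0.16 (quasi-likelihood, TMM, filter on low counts, prior count 2; R 4.3.3, limma 3.58.1), with library or batch as a block and Benjamini-Hochberg adjustment at 0.05. DESeq2 1.42.0 was an alternative. Scrublet marked doublets at 0.8% per 1000 barcodes; they were kept in the main results. On simulated counts with known changes the fits recovered 98.9 and 81.3% of genes changed by 2 on the log2 scale (Treg over comparator, and progesterone over placebo). False calls were 8 of 192 and 5 of 172 calls. The simulation gave all libraries 1 mean profile and every gene a fixed dispersion of 0.05, with no library or batch effect. Real sums can rest on few cells, so recovery in these data may be lower. Beside gate and list genes, the text names the 12 highest and 12 lowest log2 ratios among called genes with 1 sign in every library and 50 or more UMIs; Ahr and any other gene outside this rule were named after their values were seen. Total UMIs per library ran from 23409215 to 204786073, and Treg totals from 49518 to 951701. Gene positions are from the GENCODE annotation of mm10. Some genes, left out of the lists, and a second comparator and shares that rest on one of them are not reported here.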

Additional observations from a re-analysis of the deposited data

How the results depend on the processing

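Each gene named by the rule kept its sign under every alternative in which it was tested, but counts of called genes moved with nearly every choice. For Treg over Foxp3-negative CD4 T cells (127 genes), there were 318 with DESeq2, 527 with no filter on low counts, 218 and 208 with at least 5 and 20 cells per library (5 and 3 libraries), 77 after thinning, 72 with resting Treg, 84 with Treg holding a Cd4 UMI and 905 with the stricter comparator, which leaves 3 libraries; leaving out 1 library gave 23 to 208. Between pellets (6 genes), there were 2 with DESeq2, 92 with no filter, 3 with at least 5 cells, 1 after thinning, 0 without doublets, where 276 had an unadjusted p under 0.05, 1 with resting Treg, 17 with 2 or more Foxp3 UMIs and 1 without cells holding macrophage or dendritic markers. With at least 5 cells, leaving out 1 library gave 6 to 68 (25 without Progesterone 1, 31 without Placebo 1), and batch 2 alone 29. The fit without the replicate block (library or batch) called 0 genes in each comparison; an unadjusted p under 0.05 was reached by 411 genes over the comparator and 89 between pellets, and DESeq2 with the block called 318. Without Placebo 1, the share differences reversed to -0.751 (of CD4 T cells), -0.677 (of T cells) and -1.30 points (cycling); within batches they reversed without Placebo 1, and equally without Progesterone 1, to -0.273, -0.0538 and -4.63. Leaving out 1 library gave -0.751 to 2.82, -0.677 to 3.03 and -1.30 to 10.3 points, and within batches -0.273 to 1.87, -0.0538 to 1.78 and -4.63 to 15.2 points. The cause was not tested. Alternatives for cycling against resting Treg were not run, as no test was made, and leaving out 1 library between pellets at 10 cells leaves no residual degrees of freedom. Cells with macrophage markers, the stricter comparator, the Cd4 requirement and the fits with 5 cells and 1 library left out were chosen after seeing the data. Depth limits low genes: Progesterone 2 has 8 Treg, and counts of 0 bound, and do not settle, the levels of 5 of the 14 helper-list genes.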

Other observations

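Some called genes stood outside the lists and the rule for named genes, and were chosen after their values were seen. Emb, the adhesion glycoprotein embigin, had 944, 525 and 418 CPM under progesterone and 914 and 392 CPM under placebo in Treg, against 1639, 598 and 729.9 CPM under progesterone and 1729 and 1203 CPM under placebo in Foxp3-negative CD4 T cells, lower in Treg in every library (log2 ratio -1.14, SE 0.21, edgeR adjusted p = 0.0285). Mbp, whose locus also gives the Golli transcripts of lymphocytes, had 119, 40.4 and 28.8 CPM under progesterone and 128 and 90.8 CPM under placebo in Treg, against 264, 227 and 171 CPM under progesterone and 226 and 259 CPM under placebo in Foxp3-negative CD4 T cells, with no overlap (log2 ratio -1.42, SE 0.25, edgeR adjusted p = 0.0249). Among the genes called higher in Treg, Hopx, a cofactor of serum response factor, had 353, 565 and 927 CPM under progesterone and 353 and 459 CPM under placebo in Treg, against 50.9, 59.8 and 251 CPM under progesterone and 15.7 and 103.6 CPM under placebo in Foxp3-negative CD4 T cells, again with no overlap (log2 ratio 2.80, SE 0.44, edgeR adjusted p = 0.0302). Vim, the intermediate filament vimentin, had 792, 1616 and 1954 CPM under progesterone and 463 and 1549 CPM under placebo in Treg, against 285, 192 and 536 CPM under progesterone and 136 and 553 CPM under placebo in Foxp3-negative CD4 T cells (log2 ratio 1.54, SE 0.19, edgeR adjusted p = 0.00616), and was higher in Treg in every library. With 1 library left out, edgeR calls ended (adjusted p in brackets) without Progesterone 1 for Emb, Mbp and Hopx (0.102, 0.0814 and 0.128), without Placebo 1 for Emb (0.0707) and without Placebo 2 for Emb, Mbp and Hopx (0.0952, 0.0905 and 0.0689). Vim kept the call with any 1 library left out. No sign changed in any setting tried, where adjusted p of Emb, Mbp, Hopx and Vim ran from 3.57e-23 to 0.508.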
